A study of Mus musculus with 6 samples.

Results

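The beta-defensins of the mouse epididymis are described here across the regions of the duct, which runs from caput (proximal) through corpus to cauda (distal). They were taken as every gene of the deposited expression table whose symbol is Defb followed by a number, which gave 41 of 37578 genes. Beta-defensins are small secreted cationic peptides held together by conserved disulfide bridges. They disturb microbial membranes, some act as chemoattractants for immune cells, and in the epididymis several coat maturing sperm. The epididymal members lie in clusters on a few chromosomes and are known for expression restricted to particular segments of the duct, where principal cells are a well described source.

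The libraries were made from clear cells, the proton-secreting epithelial cells of the duct, sorted in 2 rounds for EGFP from transgenic mice that carry EGFP under the ATP6V1B1 gene promoter. All mice were 12 weeks old and untreated, and each library pooled 12 epididymides. There were 2 libraries per region, named here caput 1 and 2, corpus 1 and 2, and cauda 1 and 2. Whether the pools of 1 region came from different mice is not labelled, and each p-value therefore reflects the spread between these libraries alone, which may be technical.

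Levels are RPKM as the authors deposited them, that is reads scaled for gene length and library size. Comparing them between genes is limited by the shared and overlapping stretches described below. The deposited gene length can also differ from the longest annotated transcript in GENCODE M21, as for Defb47 (238 against 359 bases). Fold changes are log2 values ± SE from edgeR's quasi-likelihood test on the deposited counts, positive where the region named first is higher, with Benjamini-Hochberg adjustment over 15816 tested genes. A gene was called at an adjusted p under 0.05. Differences from caput depend on the scaling and on gene length. With the gene length trend removed, tried after seeing the data, the 22 caput against cauda values given for members of at least 10 CPM moved up by 0.53 to 2.26 and the 23 for caput against corpus by 0.12 to 2.06. With library totals in place of TMM they moved up by 0.85 to 0.86 and by 0.58 to 0.6. No corpus against cauda value among 18 moved by over 1.5 times under either setting. Reads in genes numbered 18887128 to 24700717 per library. Of the 15 clear cell markers all were measured, none was at 0, and their summed level was 8950 to 9310 CPM (counts scaled to library size with TMM factors) in caput, 2550 to 2970 in corpus and 946 to 1210 in cauda. The gene behind the promoter, Atp6v1b1, had 327 and 301 CPM in caput, 53.2 and 65.4 in corpus, with 16.6 and 24.2 in cauda. Of 23 principal cell and luminal secretory markers all were measured, 15 were called higher and 7 lower in caput than in cauda, and Lcn6 had no read in cauda. Their sum was 10500 to 12700 CPM in caput, 79100 to 91300 in corpus and 135000 to 146000 in cauda. Crisp1 alone averaged 3830, 48600 and 74200 CPM in these regions, so the sum does not describe the typical marker. The median log2 fold change of the 23 for caput against cauda was 5.77. Marker levels thus differ between the regions as well, and their part in the regional differences below was not tested. In bulk samples fewer cells of a type and less RNA per cell cannot be told apart.

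Beta-defensin transcripts took a smaller share of the caput libraries than of the corpus and cauda libraries. They took 0.671% ± 0.0487 of reads in genes in caput, 3.12% ± 0.167 in corpus and 2.19% ± 0.00415 in cauda (mean ± SD, n = 2 each). By reads, which favour longer genes, the leading gene differed by region, with Defb20 first in caput, Defb22 in corpus and Defb28 in cauda. In caput 1 the top 3, Defb20, Defb22 and Defb1, held 50.1% of the family's reads. In corpus 1 Defb22, Defb28 and Defb43 held 68.6%, and in cauda 1 Defb28, Defb2 and Defb43 held 74.1%. By mean RPKM, Defb20 and Defb28 were close in caput (1480 and 1460), and Defb28 lay above Defb22 in corpus (23200 against 18000). In cauda Defb28 was first by mean RPKM (26800). By RPKM among all genes, Defb28 ranked 3 in both corpus libraries and 4 and 5 in the cauda libraries. Defb2 ranked 8 and 6 in the cauda libraries.

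**Figure D1:**
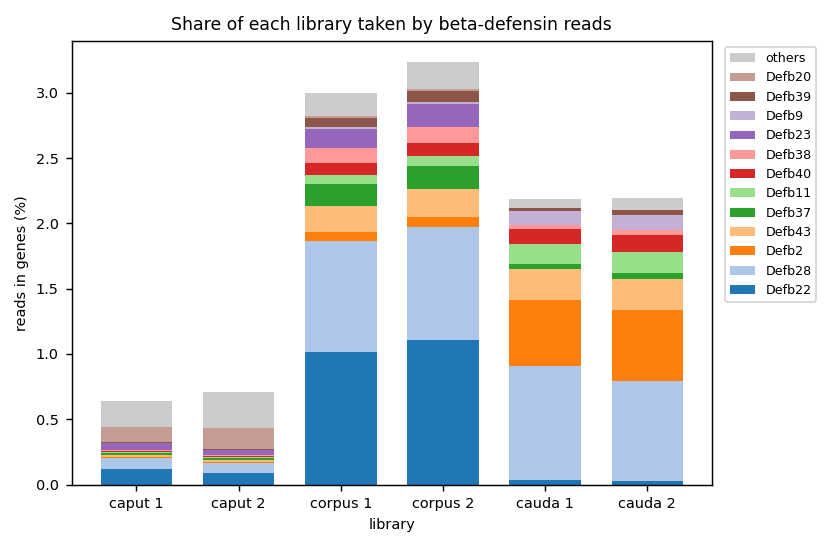
Share of each library's reads in genes (%, vertical axis) taken by beta-defensins, stacked by gene for 12 genes, with the remaining members in grey. The caput bars reach 0.637% and 0.706%, the corpus bars 3% and 3.24%, and both cauda bars 2.19%, with Defb22 large in corpus and Defb2 in cauda.

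By mean RPKM 11 members were highest in caput, 14 in corpus and 15 in cauda. Defb46 had no read in any library. The highest region was caput for Defb1, Defb12, Defb15, Defb18, Defb20, Defb21, Defb25, Defb41, Defb45, Defb47 and Defb48. It was corpus for Defb3, Defb13, Defb14, Defb22, Defb23, Defb26, Defb29, Defb30, Defb34, Defb36, Defb37, Defb38, Defb39 and Defb42. It was cauda for Defb2, Defb4, Defb5, Defb6, Defb7, Defb8, Defb9, Defb10, Defb11, Defb19, Defb28, Defb35, Defb40, Defb43 and Defb50. For Defb3, Defb4, Defb19, Defb34, Defb35 and Defb36 the libraries of the highest region overlapped those of another region, so their place is not resolved.

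Of the 41 members 36 had enough reads to be tested, and 33 of the 36 differed between regions, where 75.1% of all tested genes did. A smaller set was called higher in 1 region than in both others. It held 9 members for caput (26.8% of all tested genes), 8 for corpus (8.55%) and 9 for cauda (12.6%). Some passed the filter on reads only through that region, such as Defb6, Defb7 and Defb8 in cauda and Defb12, Defb41 and Defb45 in caput. Their calls there are not independent of the filter, which was the same for all tested genes. The opposite extreme was called for 12 members in caput, which were lower there than in both other regions (24.6% of all tested genes), for 8 in cauda (9.62%) and for Defb6 and Defb18 in corpus (6.1%). Among the 36 tested members the share highest was 25% in caput, 22.2% in corpus and 25% in cauda. The share lowest was 33.3% in caput, 5.56% in corpus and 22.2% in cauda. The 25% highest in caput and the 5.56% lowest in corpus lie near the background and are no result about the family. The 33.3% lowest in caput includes Defb13, Defb37 and Defb39. Their calls against cauda were lost with the gene length trend removed (edgeR, adjusted p = 0.69, 0.85 and 0.515).

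**Figure D2:**
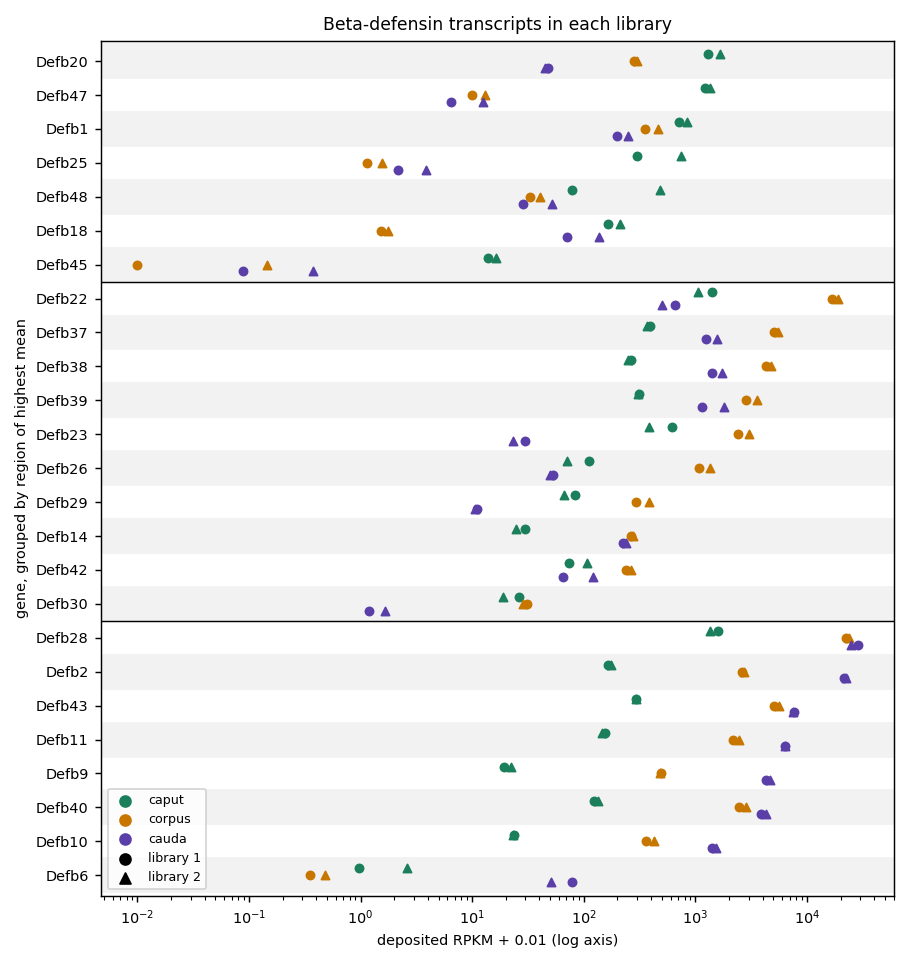
Deposited RPKM (+ 0.01, log axis) of the 25 beta-defensins with a mean of at least 10 CPM in some region, 1 row per gene, with colour for region and symbol for library. Rows are grouped from top to bottom by highest mean in caput, corpus and cauda, and the caput points of the lowest group sit left of its cauda points in every row.

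The caput group was led by Defb20, Defb47 and Defb1, and several of its members had few reads elsewhere. Defb20, of the chromosome 2 cluster, measured 1292 and 1663 RPKM in caput, 283 and 299 in corpus, with 47.5 and 44.6 in cauda. Its level stepped down along the duct with no overlap, by 2.28 ± 0.13 from caput to corpus (adjusted p = 7.30e-07) and by 2.66 ± 0.13 from corpus to cauda (adjusted p = 1.98e-06). From caput to cauda the difference was 4.94 ± 0.14 (adjusted p = 1.97e-08). Defb47 measured 1209 and 1353 RPKM in caput, 10 and 13 in corpus, with 6.49 and 12.6 in cauda. It was higher in caput by 6.73 ± 0.22 against corpus and 6.99 ± 0.22 against cauda (adjusted p = 1.73e-07 and 1.17e-07). Corpus and cauda overlapped for this gene.

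Defb1, the broadly expressed epithelial defensin that corresponds to human DEFB1, measured 720 and 847 RPKM in caput, 355 and 465 in corpus, with 197 and 251 in cauda. Its slope was the shallowest of the leading caput genes, with 0.87 ± 0.18 for caput against corpus (adjusted p = 0.00436) and 0.87 ± 0.18 for corpus against cauda (adjusted p = 0.00943). The second step was lost without cauda 1 (0.7, adjusted p = 0.0521). Caput against cauda was 1.74 ± 0.18 (adjusted p = 1.50e-04). Defb45 measured 14 and 16.3 RPKM in caput, 0 and 0.136 in corpus, with 0.078 and 0.366 in cauda. Its 2 corpus reads left it higher in caput 201-fold (95% counting interval 55.5 to 1670), and against cauda it was higher by 5.95 ± 0.52 (adjusted p = 6.86e-06). The latter became 5.28 without cauda 1 and 7.41 without cauda 2.

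Defb25 and Defb48 were uneven between the caput libraries. Defb25 measured 298 and 750 RPKM in caput, 1.14 and 1.54 in corpus, with 2.16 and 3.87 in cauda, so both caput libraries stood far above the rest. The difference was 8.52 ± 0.9 against corpus and 7.36 ± 0.81 against cauda (adjusted p = 0.0021 and 0.00228), and without caput 2 it became 7.69 and 6.53. Defb25 was not called between corpus and cauda (-1.16 ± 1.71, adjusted p = 0.663), but was with a replicate block (adjusted p = 0.0382) and without caput 1 or caput 2 (adjusted p = 0.0399 and 0.0426). Defb48 measured 78.1 and 483 RPKM in caput, 32.8 and 40.8 in corpus, with 28.3 and 52.2 in cauda. It was not called against corpus (2.87 ± 1.09, adjusted p = 0.0903) or cauda (2.74 ± 1.08, adjusted p = 0.0975). Without caput 1 both passed (3.67 and 3.53, adjusted p = 0.00347 and 0.00359), and DESeq2 called both (adjusted p = 0.00935 and 0.0129).

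Caput 2 exceeded caput 1 by more than 1.5 times for Defb6, Defb12, Defb25, Defb41 and Defb48, out of 34 members with at least 10 reads in caput 1. The share over all such genes was 7.27%. In Defb15, Defb19, Defb23, Defb26 and Defb35 the ratio fell below its inverse, as in 6.7% of all such genes. Of the principal cell and luminal secretory markers 14 of 23 exceeded the 1.5 ratio in caput 2, as did 8 of 9 sperm markers, 7 of 8 stromal and muscle markers, 3 of 3 lymphocyte markers, 3 of 13 basal cell markers, 1 of 11 mononuclear phagocyte markers and 1 of 15 clear cell markers. Of the mononuclear phagocyte markers 7 of 11 fell below the inverse ratio. The part of those cells in the uneven members was not tested.

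Defb18 was low in corpus and abundant in both other regions. It measured 164 and 209 RPKM in caput, 1.51 and 1.75 in corpus, with 70.6 and 138 in cauda. Both corpus libraries lay below all others, and the difference was 6.75 ± 0.51 for caput against corpus and -5.98 ± 0.52 for corpus against cauda (adjusted p = 7.16e-05 and 3.91e-04). Caput against cauda was not called (0.77 ± 0.31, adjusted p = 0.0696). It passed with a replicate block (adjusted p = 0.000546), with DESeq2 (adjusted p = 0.023) and without cauda 2 (1.34, adjusted p = 0.00112).

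Below 10 CPM, Defb12, Defb15, Defb21 and Defb41 were called higher in caput than in both other regions. Defb41, known from principal cells of the proximal epididymis, had 157 and 287 reads in caput, 4 and 3 in corpus, with 4 and 1 in cauda. The Defb41 difference from cauda (5.62 ± 0.62, adjusted p = 3.83e-05) ranged from 4.92 without cauda 2 to 6.92 without cauda 1. Defb12 had 180 and 248 reads in caput, 5 and 16 in corpus, with 1 and 4 in cauda. The Defb12 difference from corpus (3.62 ± 0.51, adjusted p = 2.19e-04) became 4.59 without corpus 2. Between corpus and cauda Defb12 was not called (adjusted p = 0.0847), but was with a replicate block (adjusted p = 0.0322) and without corpus 1 (adjusted p = 0.0487). Defb21 had 251 and 250 reads in caput, 56 and 85 in corpus, with 50 and 59 in cauda. For Defb15 the counts were 224 and 122 in caput, 37 and 66 in corpus, with 50 and 56 in cauda, and may hold reads of an antisense gene described below. The Defb15 calls (adjusted p = 0.0441 against cauda and 0.0253 against corpus) were lost without caput 1 (adjusted p = 0.26 and 0.157), the first also without cauda 1 or 2 (adjusted p = 0.165 and 0.139) and with DESeq2 (adjusted p = 0.078), the second also without corpus 1 (adjusted p = 0.179).

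The corpus group held Defb22, the leading beta-defensin of corpus by reads, and a chromosome 8 trio. Defb22, the counterpart of a primate defensin of the sperm surface, measured 16900 and 19080 RPKM in corpus, 1415 and 1058 in caput and 654 and 497 in cauda. Every corpus library lay above every other, with -3.93 ± 0.19 for caput against corpus (adjusted p = 1.62e-06) and 4.96 ± 0.2 for corpus against cauda (adjusted p = 2.78e-06). Caput was also above cauda (1.04 ± 0.17, adjusted p = 0.00123). Defb23 measured 2430 and 3011 RPKM in corpus, 612 and 385 in caput and 29.4 and 23.2 in cauda. Its caput level stood between the other regions, with -2.51 ± 0.26 for caput against corpus and 4.18 ± 0.29 for caput against cauda (adjusted p = 5.35e-04 and 9.81e-05). Corpus against cauda was 6.69 ± 0.32 for Defb23 (adjusted p = 7.58e-05).

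Defb26 and Defb29, of the same chromosome 2 cluster, had the same order of regions as Defb22. Defb26 measured 1081 and 1348 RPKM in corpus, 111 and 71.2 in caput and 52.9 and 49.4 in cauda. Corpus stood apart for Defb26 (-3.8 ± 0.24 for caput against corpus and 4.57 ± 0.25 for corpus against cauda, adjusted p = 4.50e-05 and 8.35e-05). The smaller step from caput to cauda (0.77 ± 0.23, adjusted p = 0.0296) was lost with a replicate block (adjusted p = 0.0609), without cauda 1 (adjusted p = 0.102) and without cauda 2 (adjusted p = 0.134). Defb29 measured 296 and 388 RPKM in corpus, 84.1 and 66.1 in caput and 10.9 and 10.5 in cauda. No libraries overlapped, with -2.25 ± 0.15 for caput against corpus and 2.74 ± 0.19 for caput against cauda (adjusted p = 3.95e-06 and 3.33e-06). With the length trend removed these became -0.68 and 4.49 for Defb29, still called. Corpus against cauda was 4.99 ± 0.19 (adjusted p = 7.36e-07).

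The trio Defb37, Defb38 and Defb39 was highest in corpus and called lowest in caput, but the lower level in caput than in cauda depended on gene length. Caput against cauda was -1.95 ± 0.12 for Defb37, -2.67 ± 0.12 for Defb38 and -2.32 ± 0.24 for Defb39 (adjusted p = 5.88e-07, 7.74e-08 and 4.09e-04). With the length trend removed it became -0.03 for Defb37 and -0.2 for Defb39, no longer called (adjusted p = 0.85 and 0.515), and -0.62 for Defb38 (adjusted p = 0.00286). Defb37 measured 5025 and 5552 RPKM in corpus, 391 and 367 in caput and 1236 and 1557 in cauda. It was called in all comparisons, with -3.86 ± 0.13 for caput against corpus and 1.92 ± 0.12 for corpus against cauda (adjusted p = 3.38e-08 and 3.32e-06). Defb38 measured 4289 and 4765 RPKM in corpus, 267 and 250 in caput and 1403 and 1740 in cauda. The same comparisons gave -4.19 ± 0.12 and 1.52 ± 0.11 for Defb38 (adjusted p = 2.29e-08 and 9.76e-06). Defb39 measured 2861 and 3547 RPKM in corpus, 314 and 309 in caput and 1156 and 1810 in cauda. Its caput libraries lay below the rest (-3.43 ± 0.25 against corpus, adjusted p = 9.83e-05). The step from corpus to cauda (1.11 ± 0.23, adjusted p = 0.0154) was lost without caput 1 (adjusted p = 0.0546), caput 2 (adjusted p = 0.0545) or corpus 2 (adjusted p = 0.072).

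Defb14, Defb30 and Defb42 also had their highest mean in corpus, with a smaller lead. Defb14, the mouse counterpart of human beta-defensin 3 and a ligand of the chemokine receptor Ccr6, measured 267 and 275 RPKM in corpus, 225 and 237 in cauda and 29.6 and 24.6 in caput. Caput lay below both (-3.38 ± 0.12 against corpus and -3.15 ± 0.12 against cauda, adjusted p = 4.28e-08 and 3.41e-08), and corpus against cauda was not called (0.23 ± 0.11, adjusted p = 0.127). With the length trend removed the differences of Defb14 from caput shrank to -1.32 and -0.89, still called, and corpus against cauda passed (0.44, adjusted p = 0.0214). Defb30 measured 31.3 and 28.4 RPKM in corpus, 26.4 and 19 in caput and 1.19 and 1.66 in cauda. Its fall in cauda was large (4.38 ± 0.22 for corpus against cauda and 3.92 ± 0.21 for caput against cauda, adjusted p = 1.49e-06 and 4.63e-07). The lead of corpus over caput was small (-0.46 ± 0.16, adjusted p = 0.0335) and was lost without caput 2 (adjusted p = 0.17), corpus 1 (adjusted p = 0.173) or corpus 2 (adjusted p = 0.0845).

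Defb42 measured 239 and 262 RPKM in corpus, 73.4 and 106 in caput and 65.7 and 120 in cauda. Both corpus libraries lay above the other 4, whose ranges overlapped. The call for caput against corpus (-1.54 ± 0.38, adjusted p = 0.027) was lost without any 1 of the caput or corpus libraries (adjusted p = 0.12, 0.0607, 0.0729 and 0.0899 without caput 1, caput 2, corpus 1 and corpus 2). Corpus against cauda was not called (1.43 ± 0.38, adjusted p = 0.0568). That comparison passed with a replicate block (adjusted p = 0.0011), without cauda 1 (adjusted p = 0.0362), without cauda 2 (adjusted p = 0.00603) and with DESeq2 (adjusted p = 0.00326).

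Among members highest in cauda, Defb2, Defb9, Defb10, Defb11, Defb40 and Defb43 were called higher at each step from caput to corpus to cauda. Defb28 measured 28840 and 24690 RPKM in cauda, 22530 and 23880 in corpus and 1585 and 1339 in caput. Cauda and corpus were not told apart by the test (-0.21 ± 0.11 for corpus against cauda, adjusted p = 0.168), while caput was lower than cauda (-4.26 ± 0.12, adjusted p = 8.70e-09) and corpus (-4.05 ± 0.12, adjusted p = 2.23e-08). Defb2, known as an inducible defensin of airway epithelium, measured 21450 and 22480 RPKM in cauda, 2591 and 2726 in corpus and 164 and 177 in caput. It rose at each step, with -4.03 ± 0.1 for caput against corpus and -3.05 ± 0.09 for corpus against cauda (adjusted p = 1.51e-08 and 7.37e-08). Its caput against cauda value was -7.08 ± 0.11 (adjusted p = 6.74e-10).

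Defb9, Defb10 and Defb11, close relatives of Defb2, rose in the same order. Defb9 measured 4318 and 4642 RPKM in cauda, 489 and 482 in corpus and 19.2 and 22.3 in caput. This was the widest caput to cauda span among members with over 3 reads in each region (-7.82 ± 0.12, adjusted p = 6.74e-10), made up of steps of -4.61 ± 0.11 and -3.21 ± 0.09 (adjusted p = 1.51e-08 and 7.18e-08). Defb10 measured 1395 and 1540 RPKM in cauda, 360 and 428 in corpus and 23.5 and 23.3 in caput. Its steps were -4.14 ± 0.12 and -1.9 ± 0.1 (adjusted p = 1.83e-08 and 1.29e-06). Defb11 measured 6307 and 6348 RPKM in cauda, 2161 and 2463 in corpus and 154 and 145 in caput. Defb11 gave -4.01 ± 0.1 and -1.46 ± 0.09 for the same steps (adjusted p = 1.51e-08 and 2.65e-06). Caput against cauda was -6.04 ± 0.12 for Defb10 and -5.47 ± 0.1 for Defb11 (adjusted p = 1.58e-09 and 1.18e-09).

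Defb40 and Defb43 had most of their rise between caput and corpus. Defb40 measured 3903 and 4298 RPKM in cauda, 2469 and 2862 in corpus and 123 and 135 in caput. The first step was -4.43 ± 0.12 (adjusted p = 1.51e-08) and the second -0.62 ± 0.1 (adjusted p = 0.00105). Defb43 measured 7644 and 7527 RPKM in cauda, 5095 and 5593 in corpus and 294 and 292 in caput. For Defb43 the steps were -4.25 ± 0.09 and -0.51 ± 0.08 (adjusted p = 1.51e-08 and 9.73e-04). Caput against cauda was -5.06 ± 0.12 for Defb40 and -4.76 ± 0.09 for Defb43 (adjusted p = 2.96e-09 and 1.18e-09). No library overlapped another region for either gene.

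Defb6, Defb7 and Defb8, also on chromosome 8, had few reads outside cauda. Defb6 measured 78.2 and 51.1 RPKM in cauda, 0.949 and 2.6 in caput and 0.345 and 0.466 in corpus. It was higher in cauda than in caput (-5.26 ± 0.42, adjusted p = 6.95e-06) and than in corpus (-7.25 ± 0.54, adjusted p = 2.05e-05). The former became -4.67 without caput 1 and -6.14 without caput 2. Caput against corpus rested on 34 and 5 reads (adjusted p = 0.0439), and the call was lost with a replicate block (adjusted p = 0.0621), without caput 2 (adjusted p = 0.23), without corpus 1 (adjusted p = 0.203) and without corpus 2 (adjusted p = 0.167). Defb7 had 86 and 124 reads in cauda, none in caput and 1 in corpus, which makes it at least 125-fold higher in cauda than in caput (against a floor of 3 counts over the region). Defb8 had 98 and 146 reads in cauda, 2 in caput and 1 in corpus, a ratio of 218 against caput (95% counting interval 59.6 to 1810). Intervals and floors cover counting error only.

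**Figure D3:**
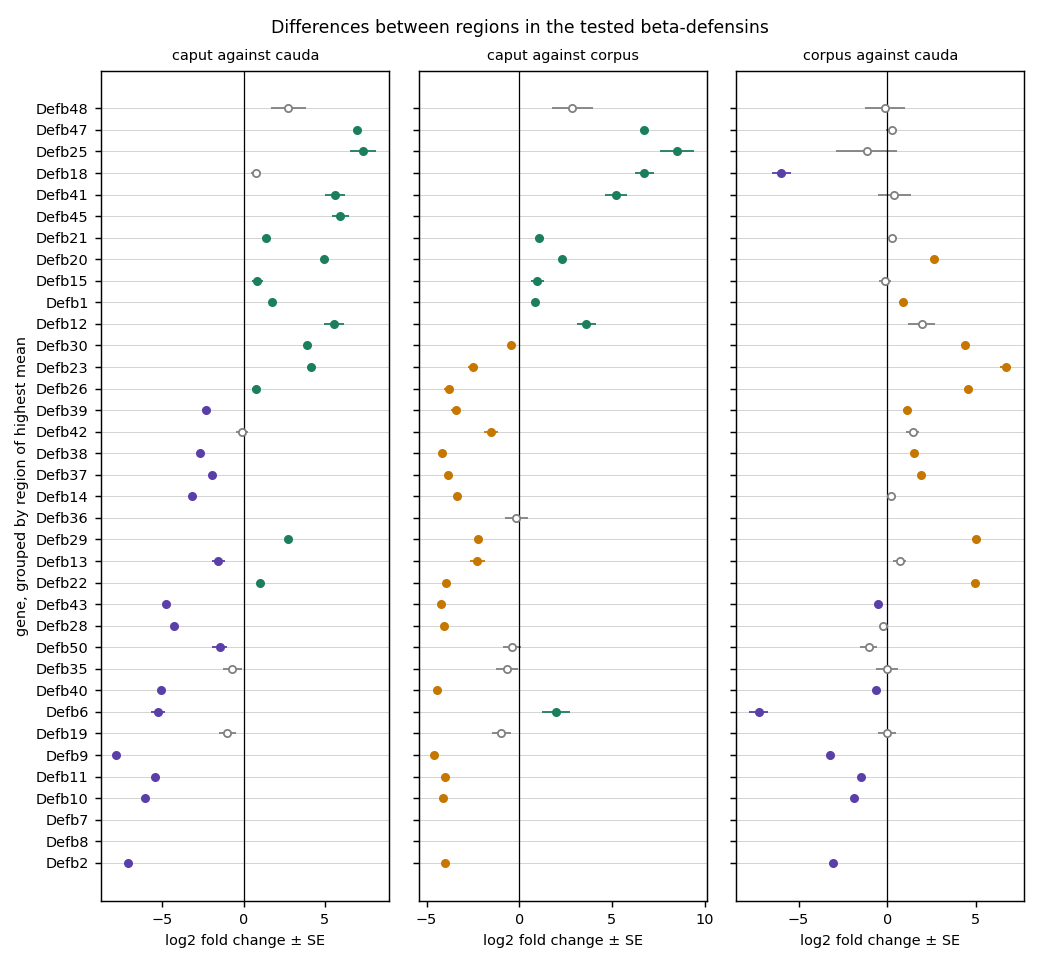
Log2 fold change ± SE (horizontal axes) of the 36 tested beta-defensins in the 3 comparisons, grouped by region of highest mean; filled points were called and take the colour of the higher region (caput green, corpus orange, cauda purple), open grey points were not, and pairs with at most 3 reads in a region are left blank. Between caput and cauda the points spread to both sides, from -7.82 for Defb9 to 7.36 for Defb25.

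Counted by comparison, caput against cauda called 15 members higher (33.9% of all tested genes) and 16 lower (33%). Caput against corpus called 11 higher (33.2%) and 18 lower (31.8%). Corpus against cauda called 11 higher (17.3%) and 10 lower (18%). In both directions together the calls were 31, 29 and 21 of 36, that is 86.1%, 80.6% and 58.3%, against 66.9%, 65% and 35.4% of all tested genes. The comparisons share libraries and are not independent of each other.

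The median log2 fold change of the 36 was -0.40 for caput against cauda, -1.26 for caput against corpus and 0.10 for corpus against cauda. All tested genes had medians of 0.04, 0.04 and 0.00. Beta-defensin genes are short, with a median length of 371 bases against 3405 for all tested genes, and the 1389 tested genes of at most 1000 bases had medians of -1.21, -1.13 and -0.08. With the gene length trend removed, the caput against cauda median of the members became 1.13, and 17 were called higher and 12 lower. Under that correction Defb30 was no longer called between caput and corpus (adjusted p = 0.99).

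Other members below 10 CPM rested on few reads. Defb13 had 21 and 17 reads in caput, 42 and 68 in corpus, with 32 and 31 in cauda, and was called lower in caput than in corpus (adjusted p = 7.55e-04) and cauda (adjusted p = 0.00687). With the length trend removed both calls were lost (adjusted p = 0.139 and 0.69), and with library totals the second was (adjusted p = 0.132). Defb36 had 25 and 18 reads in caput, 19 and 9 in corpus, with 1 and 0 in cauda. The Defb36 ratio of caput to cauda was 24.1 (95% counting interval 4.1 to 974). Its caput against cauda call was lost without cauda 2 (adjusted p = 0.0512), and its call for corpus against cauda without corpus 1 or cauda 2 (adjusted p = 0.0879 and 0.083). Defb50 had 26 and 24, 14 and 26, and 28 and 50 reads in caput, corpus and cauda, and its call for caput against cauda (adjusted p = 0.0188) did not hold when cauda 2 was left out (adjusted p = 0.183), with library totals (adjusted p = 0.252) and with the length trend removed (adjusted p = 0.452).

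Defb19, known from Sertoli cells of the testis, and Defb35 were tested and not called in any comparison. Their reads were 84, 97 and 93 for Defb19 and 26, 24 and 23 for Defb35 in caput, corpus and cauda. Without caput 1, Defb19 was called lower in caput than in cauda (adjusted p = 0.0285) and corpus (adjusted p = 0.031). The untested members were Defb3 (13 reads in all libraries), Defb4 (10), Defb5 (19), Defb34 (5) and Defb46 (0). Defb3, known as an inducible defensin of mucosal epithelium, had at most 4 of these reads in any library. Of the 19 reads of Defb5, 16 came from cauda, none from corpus and 3 from caput.

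Reads that fit more than 1 place in the genome were not assigned to genes, and near-identical members could lose them. In the annotated transcripts of GENCODE M21 (build GRCm38, matched by gene identifier for 41 of 41 members), 10 members held at least 1 stretch of 50 bases found unchanged in another gene's transcript, and 31 held none. The largest shares within the family were 20.7% of the windows of Defb2, 19.8% of Defb11, 16.9% of Defb10 and 9.96% of Defb9, all shared among these 4 genes. Defb8 shared 9.66% with Defb4, and Defb4 shared 5.68% with Defb8. Defb35 shared 8.72% with Defb12, and Defb12 shared 3.14% with Defb35 and Gm45796. The transcripts of Defb12 and Defb35 aligned at 97.5% identity over 202 bases. This was the highest identity within the family among alignments of at least 100 bases. Defb42 shared 2.2% with transcripts of many unrelated genes. For windows of 100 bases the family shares fell to 1.46% for Defb2, 1.38% for Defb11 and 0 for the others, except Defb15.

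Defb15 shared 37.2% of its 50-base windows, all with Gm36879. That gene lies on the opposite strand, and its exons cover 200 of the 345 exon bases of Defb15 (58%). Counting ignored strand, so within the overlap the origin of a read cannot be told apart, and how such reads were counted was not tested. The closest relative of Defb15 by coding sequence was Defb34, at 91% identity, yet no 50-base window was shared between them, and Defb34 had 5 reads against 555 for Defb15. Defb3 and Defb5 followed at 85.4% and Defb10 and Defb11 at 84.4%. The authors' read length is not given in the sources used here, and unannotated copies in the genome were not searched, so these shares do not state how many reads were lost.

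**Figure D4:**
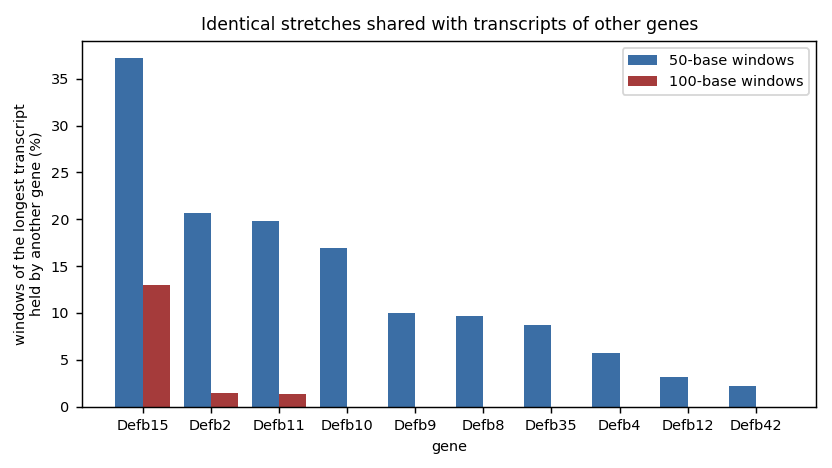
Percentage of 50-base (blue) and 100-base (red) windows of the longest annotated transcript that occur unchanged in a transcript of another gene, for the 10 members with any. Defb15 reaches 37.2% through the antisense gene Gm36879, Defb2 20.7% through its relatives, and at 100 bases Defb2 and Defb11 fall below 2%.

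The coding sequences of the 4 related cauda genes show where the shared stretch lies. They are printed from GENCODE M21 on GRCm38, 5′ to 3′ on the coding strand, with capitals for bases inside a 50-base window that another gene's transcript holds unchanged. The spans are chr8:21839959-21843423 (plus strand) for Defb2, chr8:21858928-21861959 (plus) for Defb10, chr8:21905429-21906379 (minus) for Defb11 and chr8:21881795-21885394 (minus) for Defb9.
Defb2: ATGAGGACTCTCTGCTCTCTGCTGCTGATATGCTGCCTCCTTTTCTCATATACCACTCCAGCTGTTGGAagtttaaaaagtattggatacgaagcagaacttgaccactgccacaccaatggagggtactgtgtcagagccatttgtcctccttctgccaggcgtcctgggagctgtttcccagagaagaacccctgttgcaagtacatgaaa
Defb10: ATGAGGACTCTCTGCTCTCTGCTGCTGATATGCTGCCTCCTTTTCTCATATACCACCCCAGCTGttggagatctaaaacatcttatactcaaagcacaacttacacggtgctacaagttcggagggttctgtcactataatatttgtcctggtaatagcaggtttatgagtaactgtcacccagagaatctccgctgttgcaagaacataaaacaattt
Defb11: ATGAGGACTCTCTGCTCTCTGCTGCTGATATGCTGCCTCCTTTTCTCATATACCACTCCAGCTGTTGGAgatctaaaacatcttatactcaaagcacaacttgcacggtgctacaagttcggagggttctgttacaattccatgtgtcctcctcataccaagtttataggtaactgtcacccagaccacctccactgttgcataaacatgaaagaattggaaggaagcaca
Defb9: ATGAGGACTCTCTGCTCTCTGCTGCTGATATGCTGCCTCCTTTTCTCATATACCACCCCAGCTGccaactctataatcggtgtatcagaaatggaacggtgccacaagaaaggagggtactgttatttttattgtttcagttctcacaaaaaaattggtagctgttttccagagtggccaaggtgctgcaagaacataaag
The capitals cover the first 69, 64, 69 and 64 bases, which is 32.4%, 29.2%, 29.9% and 31.8% of the respective coding sequence. This is the start of the open reading frame, which in beta-defensins encodes the signal peptide, while the cysteine-bearing remainder differs between the genes.

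Coding sequence identity was set beside the region of each member, as a description. Among the 26 members called highest in a region there are 325 pairs, of which 100 (30.8%) share the region. Of the 15 pairs with at least 60% identity, 11 did (73.3%), and of the 5 pairs with at least 70%, 5 did. Those 5 were Defb10 with Defb11, Defb2 with each of Defb9, Defb10 and Defb11, and Defb37 with Defb38. The exceptions at 60% were Defb40, highest in cauda, against Defb37, Defb38 and Defb39, and Defb1, highest in caput, against Defb2. Pairs share genes, so they are not independent, and the Defb2 group has the shared windows described above. Pairs with a member not called highest were left out. Among them, Defb15 with Defb34 (91%), Defb3 with Defb5 (85.4%) and Defb3 with Defb8 (79.4%) had their highest means in different regions. Defb4 with Defb6 (78.3%) had both in cauda. Defb3, Defb4, Defb5 and Defb34 had too few reads to be tested.

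Gene order was then set beside the regions. In the RefSeq gene table (GRCm38.p6), which holds 41 of 41 members, 2 lie on chromosome 1, 11 on chromosome 2, 23 on chromosome 8 and 5 on chromosome 14. Of the 12 members lowest in caput 10 lie on chromosome 8, and of the 8 lowest in cauda 6 lie on chromosome 2. The 10 include Defb13, Defb37 and Defb39, whose calls for caput against cauda were lost with the gene length trend removed. None of the 8 chromosome 2 members called highest in a region was highest in cauda, against 8 of 14 on chromosome 8. By highest mean alone, 2 of 11 chromosome 2 members were highest in cauda, Defb28 and Defb19, against 12 of 23 on chromosome 8. Defb28 held the most beta-defensin reads in both cauda libraries. Along the chromosome, passing over members without a call, 11 of 22 neighbouring pairs shared their highest region and 11 did not. Among all 325 pairs of members called highest in a region, 100 (30.8%) shared it. Neighbouring pairs share genes, so they are not independent. Defb37, Defb38 and Defb39 formed a run highest in corpus and Defb2, Defb10, Defb9 and Defb11 a run highest in cauda. On chromosome 2 Defb20, highest in caput, sits between Defb23 and Defb22, both highest in corpus. On chromosome 14 Defb47, highest in caput, lies beside Defb43, highest in cauda.

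**Figure D5:**
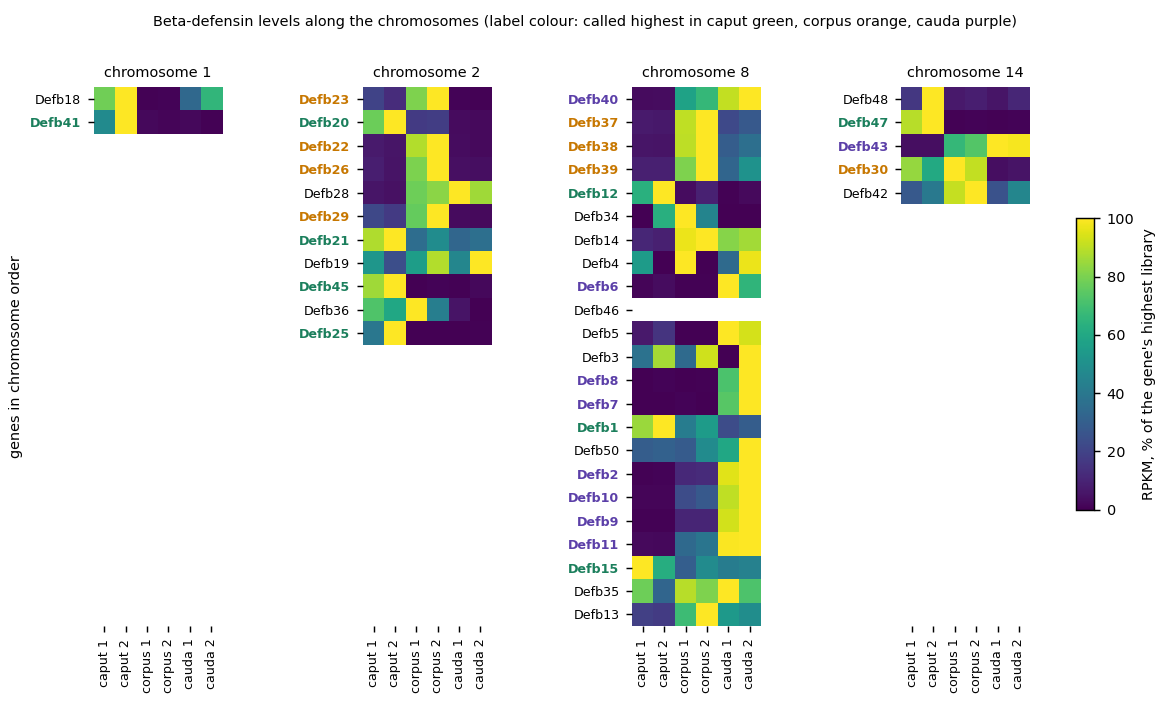
Deposited RPKM of each beta-defensin as a percentage of its highest library (colour scale), with genes in chromosome order from top to bottom and libraries as columns. Coloured names were called highest in caput (green), corpus (orange) or cauda (purple), Defb46 is blank for lack of reads, and the cauda columns are dark, that is low, for Defb20, Defb22, Defb23, Defb26 and Defb29 on chromosome 2.

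Promoters of these neighbours that differ in region are printed from RefSeq (GRCm38.p6), 250 bases before to 50 after the annotated start, 5′ to 3′ on the gene's strand. Capitals mark AGAACA or its reverse complement TGTTCT, a hexamer known from steroid hormone response elements, and TATAAA on either strand. The windows are chr2:152464571-152464870 (minus strand) for Defb23, chr2:152476813-152477112 (plus) for Defb20, chr2:152490089-152490388 (minus) for Defb22, chr14:62997827-62998126 (plus) for Defb47 and chr14:63011521-63011820 (plus) for Defb43.
Defb23: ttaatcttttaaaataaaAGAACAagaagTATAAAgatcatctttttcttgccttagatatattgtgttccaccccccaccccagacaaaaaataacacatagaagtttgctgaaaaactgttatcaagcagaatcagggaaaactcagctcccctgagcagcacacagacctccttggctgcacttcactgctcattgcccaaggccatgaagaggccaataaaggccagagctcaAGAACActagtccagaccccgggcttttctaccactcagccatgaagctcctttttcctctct
Defb20: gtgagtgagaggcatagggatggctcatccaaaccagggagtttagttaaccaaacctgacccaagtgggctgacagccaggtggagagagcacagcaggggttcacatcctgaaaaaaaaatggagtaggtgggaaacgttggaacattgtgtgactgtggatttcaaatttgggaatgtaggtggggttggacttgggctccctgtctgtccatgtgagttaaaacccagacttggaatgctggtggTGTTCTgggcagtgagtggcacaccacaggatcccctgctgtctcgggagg
Defb22: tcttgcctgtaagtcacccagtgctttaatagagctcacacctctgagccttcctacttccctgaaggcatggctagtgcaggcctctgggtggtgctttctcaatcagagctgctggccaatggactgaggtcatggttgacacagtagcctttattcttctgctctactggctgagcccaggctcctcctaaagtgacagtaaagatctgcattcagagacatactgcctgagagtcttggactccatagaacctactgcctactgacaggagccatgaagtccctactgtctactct
Defb47: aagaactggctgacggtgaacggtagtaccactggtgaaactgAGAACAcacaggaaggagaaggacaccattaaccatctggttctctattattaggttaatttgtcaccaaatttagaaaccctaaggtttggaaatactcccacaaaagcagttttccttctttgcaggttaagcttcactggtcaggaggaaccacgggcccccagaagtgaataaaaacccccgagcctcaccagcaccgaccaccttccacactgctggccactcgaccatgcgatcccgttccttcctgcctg
Defb43: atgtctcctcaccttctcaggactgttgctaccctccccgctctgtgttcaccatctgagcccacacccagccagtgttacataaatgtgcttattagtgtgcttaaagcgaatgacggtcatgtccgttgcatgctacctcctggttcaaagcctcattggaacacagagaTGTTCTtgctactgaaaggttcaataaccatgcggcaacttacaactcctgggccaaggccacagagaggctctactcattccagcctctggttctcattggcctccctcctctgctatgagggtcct
TATAAA is in the Defb23 window alone of these 5. The hexamer occurs 2 times in the Defb23 window, 1 time each in those of Defb20, Defb47 and Defb43, and not in that of Defb22.

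Over the family, 28 of 41 members matched the promoter table with 29 windows, since Defb21 has 2. The hexamer AGAACA was found on either strand in 18 of 29 (62.1%), against 6233 of 32851 promoters in all (19%). Member windows held a median of 48.3% G and C, with a range of 29.7% to 56.7%, against 52.7% for all promoters, and among the 20290 promoters inside that range 25.2% held the hexamer. By region the hexamer was in 5 of 7 windows of genes called highest in caput, 4 of 7 in corpus and 5 of 7 in cauda, with no separation of the regions by this count. TATAAA was found in 17.2% of member windows and 13.6% of all. The forkhead core TGTTTAC was found in none of the 29, against 3.65% of all promoters. Windows of related genes share ancestry, and a match or its absence in this window is a description only.

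Spag11a and Spag11b, epididymal genes that carry a beta-defensin-like domain, were the tested members of a list of 31 that otherwise holds alpha-defensin genes and pseudogenes, 22 of which had no read. Spag11a had 38.9 and 41.2 CPM in caput, 210 and 199 in corpus, with 162 and 139 in cauda. Spag11b ran the opposite way with 484 and 698 CPM in caput, 1.51 and 1.97 in corpus, with 3.08 and 2.72 in cauda. Caput against cauda gave -1.91 ± 0.09 for Spag11a and 7.67 ± 0.25 for Spag11b (adjusted p = 1.44e-07 and 2.80e-07).

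Of 25 other antimicrobial proteins 23 were measured and 11 tested, with 3 higher and 5 lower in caput than in cauda (33.9% and 33% of all tested genes). Ltf, the iron-binding lactoferrin, led that list with 7150 and 8030 CPM in cauda, 873 and 688 in corpus and 50 and 87.2 in caput. Among 9 receptors and partners 4 were tested, and Tlr2 and Tlr4 were called higher in caput than in cauda, both at under 7 CPM, against 33.9% of all tested genes. Ccr6, the receptor of Defb14, stayed at or below 0.203 CPM in every library. Of 13 regulators of defensin genes all were tested, and 10 were called higher in caput than in cauda, 0 lower, with a median of 0.93, against 33.9% and 33% of all tested genes and their median of 0.04.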

How the data were processed

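RNA from sorted clear cells was sequenced for 6 libraries, 2 per region. The authors deposited whole-number read counts per gene for each library, which per the deposited file names ignore strand, and a table of RPKM values with gene lengths (an other unit, in bases). STAR, HTSeq, edgeR and the mm9 build are named in the submitters' processing notes. For their versions, the annotation release and the read length: not given in the sources used here. Deposited RPKM values equal counts divided by gene length and a scaled library size, with scale factors of 0.774 to 1.387. Rows for reads without a gene entered no total (no feature 6.67% to 9.48%, ambiguous 1.39% to 1.83%, not unique 33.11% to 38.59% of the total).

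Counts were tested with edgeR 4.0.16 (R 4.3.3), with TMM scaling, its filter on low counts by region, the quasi-likelihood test over the 6 libraries together (3 residual degrees of freedom), and Benjamini-Hochberg adjustment. The SE is the log2 fold change divided by the root of F and is approximate. The procedure was checked on simulated counts. Library totals, DESeq2 1.42.0, no filter, a replicate block, the 4 libraries compared alone, each library left out in turn and a gene length correction were the alternatives. Same-numbered libraries deviated together, with correlations of 0.187, 0.162 and 0.134 for caput with corpus, caput with cauda and corpus with cauda. Replicates differed by more than sampling noise.

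Values in every library are given for members of at least 10 CPM in a region, and a test where such a member was called with no overlap. Against a region with at most 3 reads a bound or a ratio with a 95% counting interval is given. Other fold changes and p-values, and Ccr6, were chosen after their values were seen. The members and lists were chosen with earlier results of these data known.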

Additional observations from a re-analysis of the deposited data

How the results depend on the processing

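Leaving out each library in turn gave 13 to 15 members higher and 15 to 17 lower for caput against cauda, 9 to 11 and 16 to 18 for caput against corpus, and 10 to 11 and 10 to 11 for corpus against cauda. It gave 30 to 32 members that differ between regions, and 11 to 12, 13 to 16 and 13 to 15 with their highest mean in caput, corpus and cauda. With the replicate block, which pairs same-numbered libraries, the counts were 15 and 16, 10 and 18, and 13 and 11. The block changed no call other than those of Defb6, Defb12, Defb18, Defb25, Defb26 and Defb42 given above. The member median for caput against cauda reversed to 0.45 with library totals, 0.03 without cauda replicate 2 (its lowest value with a library left out was -0.63, without caput replicate 1) and 1.13 with the gene length trend removed, and that for corpus against cauda to -0.01 with only the 4 libraries compared. Library totals moved the median of all genes to 0.89, 0.63 and 0.27, and Defb30 for caput against corpus to 0.13 (edgeR, adjusted p = 0.495). The causes were not tested. Under library totals the region of highest mean changed for Defb3, Defb19, Defb28, Defb30, Defb35 and Defb36. Of the 63 calls of members that met the naming rule, DESeq2 lost none. Without the filter, edgeR lost Defb26 for caput against cauda, Defb42 for caput against corpus and Defb39 for corpus against cauda (adjusted p = 0.126, 0.0738 and 0.0978). The 4 libraries compared alone lost Defb39 for corpus against cauda (edgeR, adjusted p = 0.0502). Library totals lost Defb42 for caput against corpus (edgeR, adjusted p = 0.0919) besides Defb30. The gene length correction was chosen after seeing the data. With 2 libraries per region and few reads, members under 10 CPM are the least certain.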

Other observations

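The pseudogene Defb44-ps, whose symbol lies outside the naming rule, had 13 and 5 reads in caput, 81 and 106 in corpus, with 109 and 103 in cauda. Caput was lower than corpus (-4.11 ± 0.38) and cauda (-4.38 ± 0.39), with edgeR adjusted p = 1.21e-05 and 6.66e-06. Corpus and cauda were not told apart (-0.27 ± 0.3, adjusted p = 0.537).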
